A study of Mus musculus with 2 samples.

Results

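The miR-1843 family of the mouse consists of 2 hairpin genes, Mir1843a and Mir1843b, that each give a miRNA from the 5′ side (5p arm) and one from the 3′ side (3p arm). The 4 mature miRNAs were taken by name from the deposited table of miRNAs in exosomes shed by pancreatic islets, and all 4 were present among its 2083 entries, of which 677 carry mouse miRBase names. A predicted entry that carries the family's number as its serial number was not counted as a member, since the table gives no sequence for it. The family had been picked with its values in this table known, so its levels and ratios are a description and carry no test.

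Exosomes are small vesicles shed by cells, and the islets are the endocrine tissue of the pancreas. The mice that gave the islets were of strain C57BL/6 and ate either the normal chow diet (NCD), in which fat made up 4%, or the high-fat diet (HFD), in which it made up 60%. Their islets stayed in culture for a week in medium without serum exosomes. Vesicles were spun down from supernatants gathered daily, and their small RNA was sequenced in 1 library per diet. The labels state neither the age and sex of the mice nor the number of animals or cultures pooled for a library. With 1 library per diet there is no spread between animals or cultures to set a difference against. Every interval below is a 95% counting interval and covers counting error alone. PCR copies of a molecule may be counted as separate reads, which would make these intervals too narrow. In such bulk material, fewer vesicles of a kind and less RNA per vesicle cannot be told apart.

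A miRNA is cut from a hairpin-shaped transcript by the nucleases Drosha and Dicer, and one strand of the resulting duplex is kept by an Argonaute protein. That strand finds its target messages mainly through its seed, bases 2 to 8 from the 5′ end, so a start point moved by a single base gives a different seed. Some miRNA hairpins are at the same time part of a small nucleolar RNA or a small Cajal body RNA (scaRNA). RNAs of the H/ACA class fold into a pair of hairpins with an ACA triplet near the 3′ end, and guide the change of uridine into pseudouridine in other RNAs. Little is established about what miR-1843 does in islets.

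The mature sequences are shown because the family's entries differ in where they start more than in what they hold. They are those of RefSeq on GRCm38.p6, 5′ to 3′, with the seed in capitals. All 4 members matched an entry there.
miR-1843a-5p: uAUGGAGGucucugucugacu
miR-1843b-5p: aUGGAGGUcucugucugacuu
miR-1843a-3p: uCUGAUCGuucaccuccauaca
miR-1843b-3p: cCGAUCGUuccccuccauac

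Over the 20 bases that the 5p miRNAs share there was no difference. miR-1843b-5p begins 1 base later and ends 1 base later than miR-1843a-5p. The seeds of the 5p miRNAs overlap by 6 bases but are not the same seed. The 3p miRNAs differed at 2 of 20 aligned bases, U3C and A12C, counted from the 5′ end of miR-1843a-3p with its base given first. Their seeds share a run of 5 bases. The family therefore held 4 distinct seeds. For each member, none of the other 1678 mature mouse miRNAs in the RefSeq table had the same seed. Of the 677 known entries of the deposited table, the 595 with a RefSeq sequence could be searched in this way, and none outside the family had one of these seeds.

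The hairpins are shown with their mature arms in capitals, since they decide which reads can be told apart.
Mir1843a: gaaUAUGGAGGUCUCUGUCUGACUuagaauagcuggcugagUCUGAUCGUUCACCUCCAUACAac
Mir1843b: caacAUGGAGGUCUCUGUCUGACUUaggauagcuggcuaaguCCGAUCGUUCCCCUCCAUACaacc

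The hairpin Mir1843a is 65 bases long and lies on chromosome 12 (80391613 to 80391677, minus strand). Mir1843b is 66 bases long and lies on chromosome 1 (159340358 to 159340423, plus strand). Aligned over 65 bases they were identical at 59, with the substitutions G1C, U4C, A28G, G39A, U44C and A53C, counted from the 5′ end of Mir1843a with its base given first. RNAfold gave Mir1843a 20 base pairs and a folding energy of -23.1 kcal/mol, and Mir1843b 18 base pairs and -21.4 kcal/mol. In both predicted folds the 3p miRNA reached 2 bases beyond the start of the 5p miRNA at the foot of the stem, the overhang that Drosha cuts leave.

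The whole of miR-1843b-5p was found in both hairpins, at bases 5 to 25 of each. miR-1843a-5p was found in Mir1843a alone of the pair, from base 4, and the base that sets it apart is its first, at the substitution U4C. A read that starts 1 base into miR-1843a-5p and runs 1 base past its end is thus letter for letter miR-1843b-5p. The split of 5p reads between the copies is uncertain for that reason, and no label or header states how the authors dealt with reads that match both places. Some entries named as copies of each other had equal counts, such as miR-199a-3p and miR-199b-3p, each with 324 in NCD and 371 in HFD. A 5p read of miR-1843 may thus have been counted under both copies. The 3p miRNAs were each found in their own hairpin and not in the other. Values below are given for each entry and for the copies summed.

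Both hairpins sit in an intron of a protein-coding gene on the same strand and inside a scaRNA gene of that intron, in GENCODE M21 on GRCm38. Mir1843a lies in an intron of Dcaf5 (chromosome 12, 80335848 to 80436601), a gene for a substrate receptor of a cullin ubiquitin ligase. Mir1843b lies in an intron of Cop1 (chromosome 1, 159232320 to 159347640), a gene for a ubiquitin ligase. All 65 bases of Mir1843a are the last bases of Scarna3b, from base 75 of 139, and 65 of the 66 bases of Mir1843b are the last bases of Scarna3a, from base 76 of 140. In humans SCARNA3 is an H/ACA RNA of Cajal bodies. The scaRNAs are shown as DNA letters from GENCODE with the stretch of the miRNA hairpin in capitals, because they place the family in the second hairpin of an H/ACA RNA, up to its ACA end.
Scarna3b: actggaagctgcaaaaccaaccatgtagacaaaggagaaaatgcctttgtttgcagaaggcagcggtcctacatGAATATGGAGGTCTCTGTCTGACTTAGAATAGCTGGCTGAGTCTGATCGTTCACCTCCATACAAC
Scarna3a: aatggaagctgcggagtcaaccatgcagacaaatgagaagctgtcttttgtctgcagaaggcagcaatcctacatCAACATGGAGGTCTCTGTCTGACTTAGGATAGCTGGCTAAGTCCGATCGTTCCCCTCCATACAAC

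The 2 scaRNAs were 86.3% identical over 139 aligned bases. A search of every GENCODE M21 transcript on both strands found the 4 mature sequences in Mir1843a, Mir1843b, Scarna3a, Scarna3b and CT030161.1, a non-coding transcript that overlaps Scarna3b, and nowhere antisense. Reads of the miRNAs and fragments of these scaRNAs with the same ends cannot be told apart by sequence. The table holds mature miRNAs alone, so the level of the scaRNAs themselves was not analysed here.

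All 4 members had more counts in HFD, although the HFD library was the shallower one, with 2020831 counts against 2417589. Levels are given as counts per 1000000 counts of the library (CPM). A mature miRNA is read in full by 1 read, so the CPM of different miRNAs are compared with no length scaling.

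mmu-miR-1843a-5p, the most abundant member, had 67 counts in NCD and 200 in HFD. That is 27.7 CPM (21.5 to 35.2, exact Poisson interval) and 99.0 CPM (85.7 to 114). The intervals of the libraries do not overlap, and the level in HFD was 3.57-fold that in NCD (2.70 to 4.78, exact binomial interval for 2 counts of a given sum).
The 3p arm of the same hairpin, mmu-miR-1843a-3p, had 20 and 62 counts, or 8.27 CPM (5.05 to 12.8) and 30.7 CPM (23.5 to 39.3). Its intervals were apart as well, and its ratio of HFD over NCD was 3.71 (2.21 to 6.48).
From the other copy, mmu-miR-1843b-5p had 53 and 109 counts, or 21.9 CPM (16.4 to 28.7) and 53.9 CPM (44.3 to 65.1). Its ratio was 2.46 (1.76 to 3.48), so the counting interval reached below 2-fold.
mmu-miR-1843b-3p, the rarest member, had 13 and 26 counts, or 5.38 CPM (2.86 to 9.20) and 12.9 CPM (8.40 to 18.9). The intervals of the 2 libraries overlapped for this member, and its ratio of 2.39 had the widest span in relation to its value (1.19 to 5.07).

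**Figure D1:**
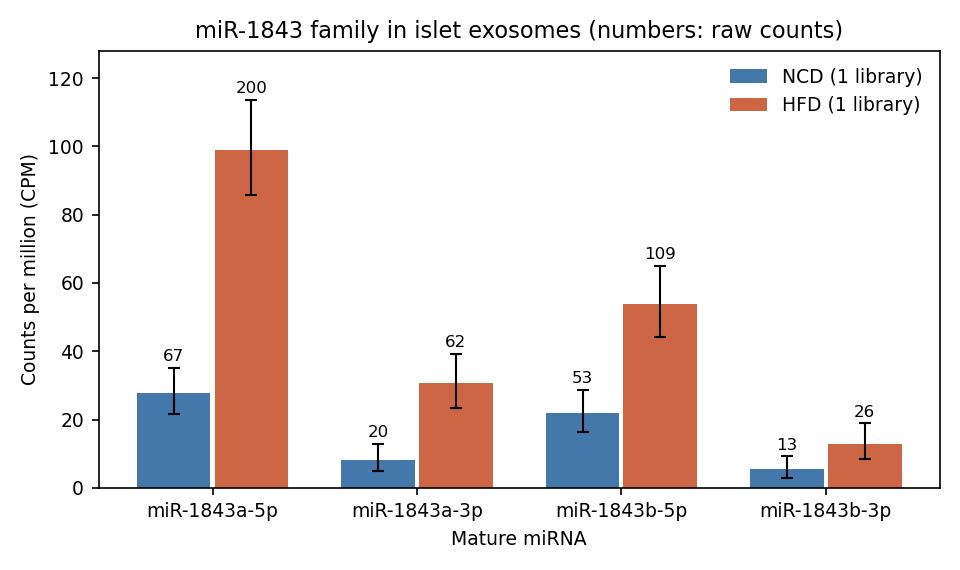
Level of each miR-1843 miRNA in CPM (bars from 0) in the NCD and the HFD library, with 95% exact Poisson intervals and the raw count above each bar. Every HFD bar stands above its NCD bar, and the intervals overlap between diets for miR-1843b-3p alone.

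The order of the members was the same in both libraries, with the 5p miRNAs above the 3p miRNAs and the a copy above the b copy within an arm. In NCD the counting intervals of miR-1843a-5p and miR-1843b-5p overlapped, and so did those of miR-1843a-3p and miR-1843b-3p, so depth does not order these neighbours there. In HFD no interval of a member overlapped that of the next. Ranked among known miRNAs by count, miR-1843a-5p stood at 207 in NCD and at 151 in HFD, and miR-1843b-5p at 228 and 191. miR-1843a-3p stood at 280 and 225, and miR-1843b-3p at 315 and 274. Since 522 known miRNAs were detected in the NCD library and 599 in the HFD library, the 5p members ranked above the median detected miRNA in both.

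Summed over the 4 entries, the family had 153 counts in NCD and 397 in HFD. If 5p reads were counted under both copies, the sums over copies hold them repeatedly. The family counts were 63.3 and 196 CPM, a ratio of 3.10 (2.57 to 3.77). The family was a small part of either library, at 0.00633% of the NCD counts and 0.0196% of the HFD counts. Summed by arm, the 5p entries had a ratio of 3.08 (2.49 to 3.84) and the 3p entries, which are free of the shared sequence, one of 3.19 (2.12 to 4.92). Summed by hairpin, the ratio was 3.60 for Mir1843a (2.82 to 4.65) and 2.45 for Mir1843b (1.81 to 3.34), and these intervals overlap.

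A miRNA was counted as higher in HFD if its log2 ratio of HFD over NCD, with 1 CPM added to each level, was at least 1 and it had at least 10 counts in the larger library. The rule sets a size and tests nothing. The log2 ratios were 1.80 for miR-1843a-5p, 1.77 for miR-1843a-3p, 1.26 for miR-1843b-5p and 1.12 for miR-1843b-3p, so 4 of 4 members were counted as higher. Of all 387 known miRNAs measured in this way, 98 or 25.3% were higher and 37 or 9.56% lower, with a median log2 ratio of 0.33. The split was 86 higher and 46 lower with TMM factors, and 78 higher and 52 lower with median-of-ratios size factors, where the median was 0.07. The family was chosen on this same contrast, so nothing is read from its count against that share. By their log2 ratio the members ranked 45, 46, 78 and 90 of the 387, in the order given. With TMM factors miR-1843b-3p came to 0.99, with median-of-ratios size factors to 0.89 and with a pseudocount of 10 CPM to 0.57, each below the 2-fold line, while the other 3 stayed at or above it under these settings. For miR-1843a-5p and miR-1843a-3p the lower end of the counting interval also lay above 2-fold, which held for 58 or 15% of the known miRNAs measured.

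**Figure D2:**
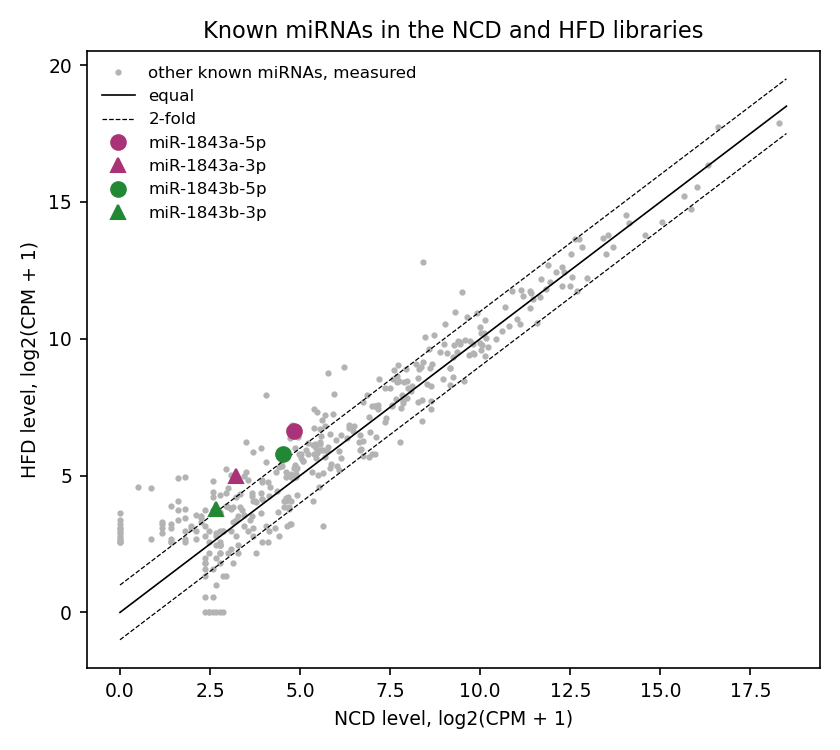
Level of every measured known miRNA in NCD (x axis) and HFD (y axis), both as log2(CPM + 1), with lines for equal levels and for 2-fold. The 4 miR-1843 miRNAs lie above the upper 2-fold line, among other grey points at the same levels.

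In the authors' deposited table the log2 fold changes were 1.69 for miR-1843a-5p, 1.74 for miR-1843a-3p, 1.15 for miR-1843b-5p and 1.10 for miR-1843b-3p. The FDR in the authors' deposited table was 1.70e-07, 0.00052, 0.0042 and 0.145 in the same order, so 3 of 4 were under 0.05. Of all 387 known measured miRNAs, 93 or 24% were under 0.05 with a higher level in HFD. These FDR values rest on an assumed spread, since all deposited p-values were matched within 6.55e-15 by edgeR's exact test after TMM scaling when the biological coefficient of variation was set by hand to 0.1. They do not measure how islet preparations vary.

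The balance of the arms was close to the same in both libraries, a comparison of entries named for the same hairpin that needs no scaling between libraries. Since miR-1843b-5p lies whole in both hairpins, its counts may hold reads of Mir1843a, which leaves the 5p shares by hairpin uncertain. Of the miR-1843a counts the 5p arm took 77.0% in NCD (66.8 to 85.4, exact binomial interval) and 76.3% in HFD (70.7 to 81.3). The odds ratio of 5p against 3p, HFD over NCD, was 0.963, with an exact interval of 0.512 to 1.76. Of the miR-1843b counts the 5p arm took 80.3% in NCD (68.7 to 89.1) and 80.7% in HFD (73.1 to 87.0), with an odds ratio of 1.03 (0.447 to 2.27). At this depth a shift of the arm balance of less than about those intervals was not detectable.

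Arms were paired where their names differ only in 5p and 3p, which leaves out numbered arms such as miR-30c-2-3p. Among 89 known hairpins so paired with both arms measured, the 5p share changed between libraries by a median of 3.62 percentage points either way. The changes of 0.676 points for miR-1843a and 0.438 points for miR-1843b were smaller than that, with 22 and 17 hairpins showing smaller ones. On the log2 scale the ratios of the 2 arms differed by 0.03 for miR-1843a, the lowest value of the 89, and by 0.14 for miR-1843b, with 4 hairpins lower, against a median of 0.87. Both arms were at least 2-fold higher in HFD for 7 of the 89 hairpins. Beside miR-1843a and miR-1843b these were miR-133a, miR-22, miR-30a, miR-30b and miR-455. The scarcer arms rest on few counts, and these values describe a single pair of libraries. The family was chosen with these ratios known, so nothing is read from its place among the 89 hairpins or among the 7.

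The share of the a copy was higher in HFD for both arms, by amounts within counting error. Of the 5p counts miR-1843a-5p took 55.8% in NCD (46.5 to 64.9) and 64.7% in HFD (59.1 to 70.1). Of the 3p counts, where the sequences can be told apart, miR-1843a-3p took 60.6% in NCD (42.1 to 77.1) and 70.5% in HFD (59.8 to 79.7). Over both arms the a copy took 56.9% and 66.0%, with an odds ratio of 1.47 (0.986 to 2.19). The larger ratio of the a copy was therefore not resolved from that of the b copy by counting error alone.

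**Figure D3:**
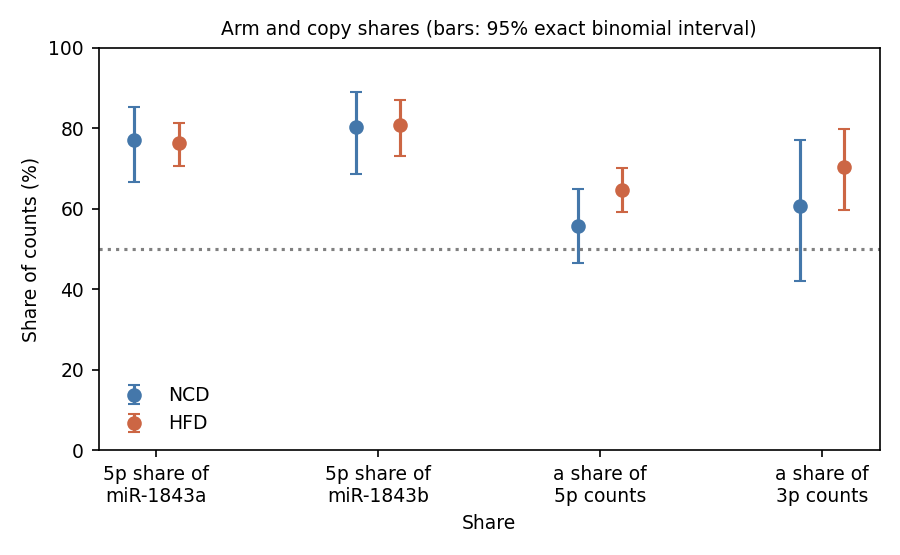
Share of the 5p arm in the counts of each hairpin, and share of the a copy in the counts of each arm, in percent, with 95% exact binomial intervals (NCD blue, HFD orange). The 5p shares lie between 76.3% and 80.7% in both libraries, and the a shares are higher in HFD with overlapping intervals.

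The members differed in base composition, which is given because the log2 ratio of known miRNAs fell with GC content in these libraries, by 0.39 per 10 percentage points over 338 known measured miRNAs with a RefSeq sequence. miR-1843a-5p and miR-1843b-5p had 47.6% GC and miR-1843a-3p 45.5%, near the median of 47.8%. miR-1843b-3p had 60.0%. With the linear trend removed, an alternative added after the data had been seen, the log2 ratios were 1.79, 1.68, 1.25 and 1.59 for miR-1843a-5p, miR-1843a-3p, miR-1843b-5p and miR-1843b-3p. All 4 remained at least 2-fold higher.

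**Figure D4:**
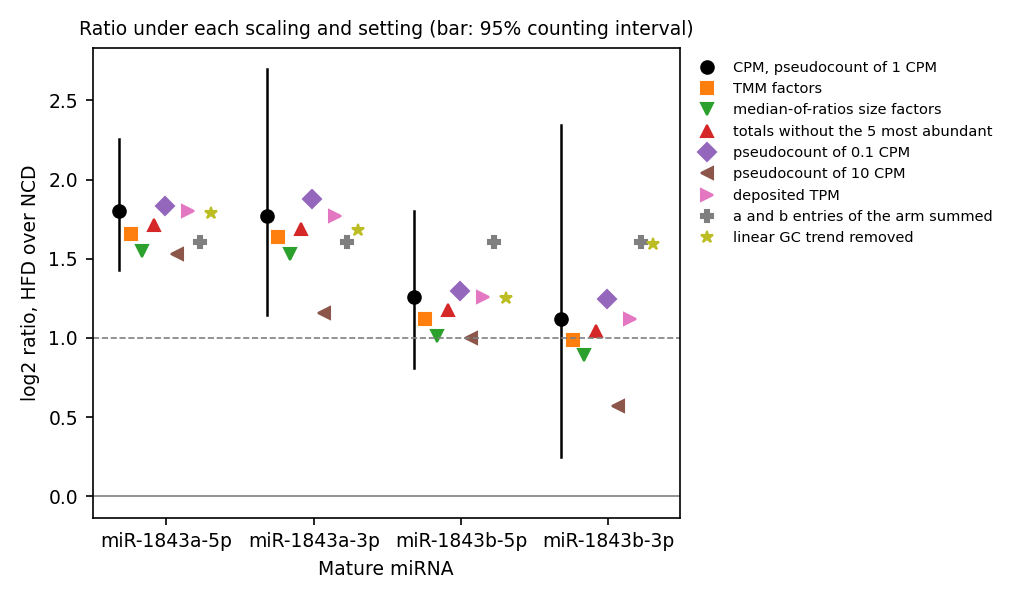
The log2 ratio of HFD over NCD for each member under each scaling, pseudocount and correction, with the 95% counting interval of the ratio of CPM as a vertical bar beside the value reported (black). The dashed line marks 2-fold, below which miR-1843b-3p fell under 3 settings. With the copies of an arm summed, both members of the arm take the value of the sum, 1.60.

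The known miRNAs nearest to each member in level were found by the distance of their log2(CPM + 1) in the 2 libraries, which uses 2 values a miRNA. Nearest to miR-1843a-5p were miR-217-5p, a miRNA of the exocrine pancreas, with 28.5 and 102 CPM, miR-378c with 24.8 and 104 CPM, and miR-690 with 26.5 and 115 CPM. Nearest to miR-1843a-3p were miR-322-3p with 7.45 and 31.7 CPM, miR-132-5p and miR-129-2-3p. For miR-1843b-5p they were miR-30b-5p with 20.3 and 52.0 CPM, miR-223-3p, a miRNA of myeloid cells, with 20.3 and 51.5 CPM, and miR-455-3p. For miR-1843b-3p they were miR-30b-3p with 4.96 and 12.4 CPM, miR-29b-3p and miR-15a-5p. Every distance was under 0.32 log2 units.

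Other miRNAs cut from small nucleolar or Cajal body RNAs were looked up as relatives by origin, after the position of Mir1843a and Mir1843b had been seen. With at least 75% of the hairpin inside such a gene on the same strand, 10 further hairpins of the RefSeq table qualified, and 6 of them had an entry in the deposited table. A single entry of these reached 10 counts. It was miR-1839-5p, whose hairpin on chromosome 7 lies in a scaRNA gene, with 567 and 697 counts, or 235 and 345 CPM. Its ratio of 1.47 (1.31 to 1.65) lay below the interval of the summed miR-1843 family, 2.57 to 3.77. The others had 0 to 4 counts in a library, among them miR-1291 with 0 and 4, miR-6516-5p with 0 and 4, miR-677-3p with 0 and 3 and miR-3084-5p with 1 and 0. With 1 measured entry outside the family, these counts do not describe scaRNA-borne miRNAs as a class.

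The large miRNA cluster of Sfmbt2, a set specific to rodents, was looked up by name, which gave 8 entries named miR-297, miR-466 or miR-669 and none named miR-467. A single one was measured, miR-669c-5p, with 59 counts in NCD and 36 in HFD, a ratio of 0.730 (0.468 to 1.12). It had a level in NCD like that of the 5p miR-1843 miRNAs, and an interval below theirs. None of the other 7 exceeded 5 counts in a library, with miR-466f-3p at 5 and 0.

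Markers of islets and of other cell types were present in both libraries. miR-375-3p, the leading miRNA of islet endocrine cells, had 81756 and 83261 CPM, and the hepatocyte miRNA miR-122-5p had more, at 321158 and 241944 CPM. Of 12 markers 12 were detected in NCD, 6 were at least 2-fold higher in HFD and 0 lower. Of all 387 known miRNAs measured, 98 or 25.3% were higher and 37 or 9.56% lower by the same rule. The 6 markers were miR-217-5p and miR-216b-5p of the exocrine pancreas, miR-1a-3p and miR-133a-3p of striated muscle, and miR-142a-3p and miR-223-3p of leukocytes. Their ratios ran from 2.19 for miR-142a-3p to 20.8 for miR-1a-3p. Leukocyte entries outside this list of markers went both ways. The more abundant opposite arms miR-142a-5p and miR-223-5p had log2 ratios of 0.57 and -0.03, miR-150-5p had 0.32 and miR-342-5p had -0.72, while miR-342-3p had 1.36. miR-126a-3p of endothelium had 6341 and 12659 CPM, and miR-451a of red cells had a ratio of 1.87. The islet markers miR-7a-5p and miR-184-3p had ratios of 1.55 and 0.704. The part of these other cell types in the level of miR-1843 was not tested.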

How the data were processed

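Small RNA of islet exosomes was read from a deposited table with 1 library per diet, matched to the samples by the library numbers in their titles. The authors' counts are raw counts per mature miRNA per the file headers, and the authors' TPM values equalled each count divided by its library's total and multiplied by 1000000, without regard to length. The authors' p-value, FDR and log2 fold change columns compare the 2 libraries. Per the submitters' processing notes the genome was GRCm38; no label or header names the aligner or counter. The libraries held 2417589 (NCD) and 2020831 (HFD) counts.

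CPM, ratios and exact intervals (conditional binomial, Poisson, Clopper-Pearson binomial and conditional odds ratio) came from Python 3.11.15 with scipy 1.17.1. Of the intervals, only that of the ratio was tried on simulated counts. These were Poisson counts, as the interval assumes, so the trial checks the code and not how libraries vary. edgeR 4.0.16 gave TMM factors and the match to the deposited p-values, and DESeq2 1.42.0 the size factors. Apart from the exact test behind that match, no test between diets was run, for want of replicates. Of the 677 known miRNAs, 595 matched a RefSeq mature sequence by name. Hairpins were folded with RNAfold 2.7.2 and aligned with Biopython 1.88.

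The members, the lists and the rules were chosen with earlier results of these data known. The rule named all members, miRNAs with a member's seed, the 3 nearest miRNAs by level, extremes of the Sfmbt2 cluster list and the first marker of each cell type. Named beyond it, after their values had been seen, were the other markers and the leukocyte and red cell entries outside the list. So were the miRNAs of small nucleolar and Cajal body RNAs. Alternatives were other scalings, the deposited TPM, pseudocounts of 0.1 and 10 CPM, other count minimums, summed copies, 1 count added to each arm and a GC correction. The deposited TPM equalled the CPM, so that setting could only repeat the values.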

Additional observations from a re-analysis of the deposited data

How the results depend on the processing

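The log2 ratio of every member stayed above 0 and within its counting interval under each scaling, pseudocount and correction tried. So did that of the summed family under each scaling and pseudocount; the GC correction was run on the members alone. The ranges were 1.53 to 1.83 for miR-1843a-5p, 1.15 to 1.88 for miR-1843a-3p, just over 1 to 1.60 for miR-1843b-5p, 0.57 to 1.60 for miR-1843b-3p and 1.36 to 1.63 for the family. The 5p shares stayed within their intervals with copies summed or 1 count added to each arm. The numbers of known miRNAs at least 2-fold higher and lower, 98 and 37, were 53 and 10 with a pseudocount of 10 CPM, 170 and 81 with no count minimum, and 40 and 11 with a count minimum of 100, where fewer were counted by construction. TMM factors shifted log2 ratios by -0.15 and median-of-ratios size factors by -0.26 before the pseudocount, which makes the shift of rare miRNAs smaller. With both size factors at 1, the latter shift is that of leaving the library totals uncorrected. Depth limits miR-1843b-3p most, with 13 and 26 counts. No replicate could be left out. No paired analysis was possible because each diet has 1 library, and no result rests on a test between diets.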
